A study of Mus musculus with 2 samples.

Results

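The Eph receptors, ephrins, Slit and Robo proteins, netrins with their receptors, and the Rgm, Flrt and Draxin proteins steer growing axons and migrating neurons. Their transcripts were compared between an Rbm3 knockdown and a control library from cooled mouse embryonic cortex. Members were picked by a rule on gene symbols, with earlier results of these data known, and 46 of the 15643 genes listed in the deposited table matched. They comprised 8 EphA and 5 EphB receptors, 5 ephrin-A and 3 ephrin-B ligands, 3 Slit ligands, 4 Robo receptors and 6 netrins or netrin-G proteins. A further 6 were Dcc, Neo1 and the Unc5 receptors, and 6 were Rgma, Rgmb, the Flrt genes and Draxin. Epha1 was not analysed here.

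Eph receptors are receptor tyrosine kinases that bind ephrins on neighbouring cells. Ephrin-A proteins are held at the membrane by a lipid anchor, whereas ephrin-B proteins span it and can signal in the cell that carries them. Slit proteins are secreted repellents read by Robo receptors, and netrins attract through Dcc or repel through Unc5 receptors. In the embryonic cortex these systems act on radial migration, on the callosal and corticofugal axon tracts and on the sorting of progenitors, and several members also shape blood vessels.

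Both libraries came from GFP-positive cells, labelled as neural stem cells, of CD-1 embryos. Control plasmid or RBM3 knockdown plasmid was electroporated in utero on embryonic day 13, maternal hypothermia was induced on day 14 in both groups, and the cells were sorted on day 15. Each group had 1 library and both were cooled, so no uncooled sample entered the comparison. The labels do not say how many embryos were pooled, and GFP marks any cell that took up plasmid.

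Over the listed genes, 17757555 reads stood in the control and 16823612 in the other library. Rbm3 itself, the targeted gene, had 3242 control reads against 2397 in the library labelled knockdown, which after scaling for library size is 84.1% of the control level, with a 95% counting interval from 79.8% to 88.7%. That library is therefore called by its label. The libraries also differed in marker transcripts: the summed level of 6 choroid plexus markers was 647 CPM (counts scaled to library size and composition) in the control but 20.4 CPM in the other library, and that of 12 immediate early genes was 244 and 1271 CPM. Eif2s3y, a gene of the Y chromosome, had 1104 and 0 reads, so the mix of embryo sexes differed. In these bulk samples, fewer cells of a type and less RNA per cell cannot be told apart.

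The guidance genes spread in both directions between the libraries. Of the 46 members, 42 were measured, meaning that their mean over both libraries reached 5 CPM, and 4 lay below. Among the 42, 5 were at least 2-fold higher in the library labelled knockdown (Unc5d, Dcc, Epha3, Efnb2 and Flrt1), beside 2.13% of all 12140 measured genes. A further 4 were at least 2-fold lower (Robo4, Epha8, Slit3 and Epha10), beside 4.51% of all measured genes, and 33 lay between. As shares of the 42 members these were 11.9% higher and 9.52% lower. At 1.5-fold, 14 were higher and 7 lower, beside 9.13% and 12.4% of measured genes. The median log2 ratio of the members was 0.23, and that of all measured genes 0.03, with 25 members above 0, where 53.1% of all measured genes lay.

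**Figure D1:**
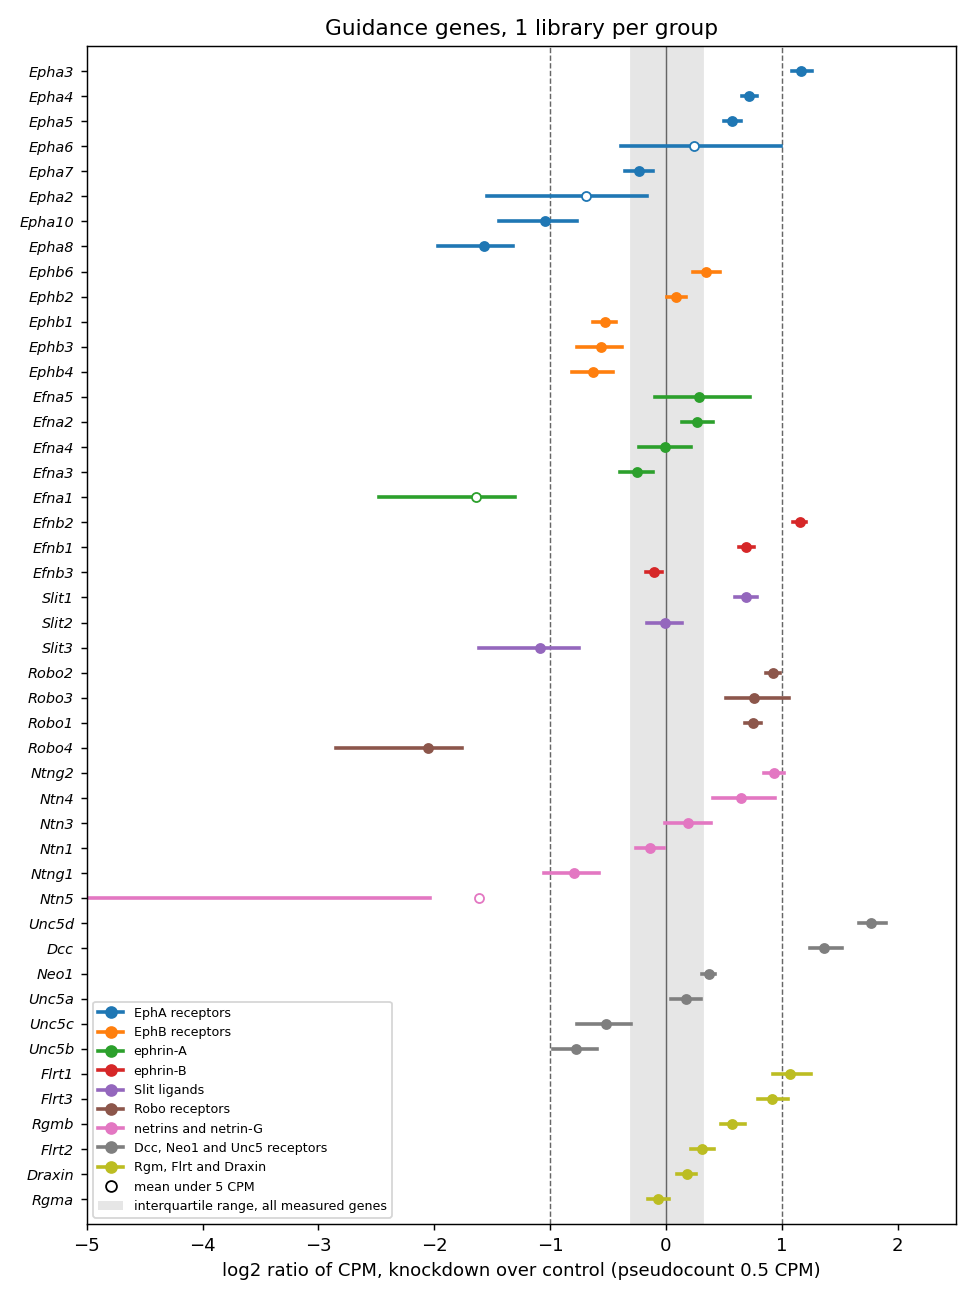
Log2 ratio of CPM (knockdown over control, pseudocount 0.5 CPM) for each of the 46 guidance genes, with lines for the 95% counting interval of the reads and no replicate error; open circles mark genes with a mean under 5 CPM. Unc5d at 1.77 and Robo4 at -2.05 are the extremes among measured members. The line of Ntn5, with 0 reads in the knockdown library, has no lower end and is cut at the axis. Lines use the reads alone and points carry the pseudocount. The point of Ntn5, at -1.61, therefore lies outside its line, whose upper end is at -2.04.

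All these are differences between 2 libraries with no replicate. The intervals given here cover counting error only and say nothing of the spread between embryos, litters or sorts. They excluded an equal level for 37 of the 42 measured members, and for 72.4% of all measured genes, so an interval that excludes equality was the usual case in this table. Folds and their intervals use the reads alone, whereas log2 ratios carry the pseudocount of 0.5 CPM. Where a pair of read counts or levels is given, the control comes first. Positions of the genes past 2-fold are those of GENCODE M21 (GRCm38), looked up by gene ID.

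Past 2-fold, the direction went with the level of the genes. The 5 higher members had mean levels from 41.4 to 358 CPM, and the 4 lower ones from 6.34 to 13.2 CPM. Of the 10 members between 5 and 20 CPM, 4 were lower and 0 higher, and of all 3532 genes in that range 11.2% were lower and 3.28% higher. Among the 15 members over 100 CPM, 2 were higher and 0 lower, with a median log2 ratio of 0.69. The 2655 genes over 100 CPM had 2.34% higher, 0.829% lower and a median of 0.20. Of the 17 members between 20 and 100 CPM, 3 were higher and 0 lower, where 1.36% of 5953 genes were higher and 2.2% lower. In the whole table the median rose and the lower share fell with level. The higher share did not follow level and was largest, at 3.28%, between 5 and 20 CPM. Among members within 2-fold, direction did not always go with level. Robo3 (13.9 CPM) and Ntn4 (14.1 CPM) had log2 ratios of 0.76 and 0.65, and Ephb1 (102 CPM) had one of -0.53.

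**Figure D2:**
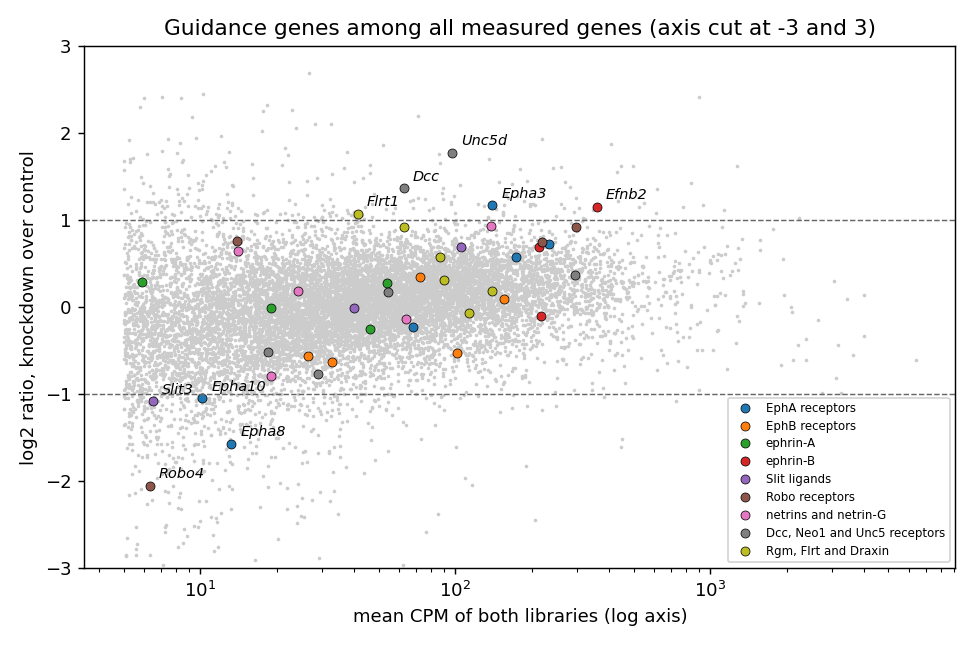
Log2 ratio (knockdown over control) against the mean CPM of both libraries on a log axis, with all measured genes in grey and the 42 measured guidance genes in colour. The 4 lower members sit at 6.34 to 13.2 CPM on the left, and the 5 higher members at 41.4 CPM and above.

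Transcripts of the members are long, with a median of 5.76 kb estimated from reads per RPKM (the authors' length- and depth-adjusted read density), beside 3.93 kb for all measured genes. The 3926 genes between 4.06 and 7.35 kb, the middle range of member lengths, had a median log2 ratio of 0.12, with 2.04% higher and 4.38% lower. After a correction for length, chosen after the data were seen, the member median was 0.19, and 4 members were higher and 4 lower. Flrt1 was the gene no longer past 2-fold, at 0.98.

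Among EphA receptors, Epha3 was higher and Epha8 and Epha10 were lower in the library labelled knockdown. Epha3 (ENSMUSG00000052504.6, chromosome 16, 63543534 to 63864175, minus strand), a receptor for several ephrin-A ligands, had 1583 control reads (85.9 CPM) against 3136 (194 CPM) in the library labelled knockdown. Its level was thus higher in the library labelled knockdown, by 2.25-fold (2.12 to 2.40). Epha4, which unlike most EphA receptors also binds ephrin-B ligands, had 3256 and 4720 reads. It stood 1.65-fold higher in the library labelled knockdown (1.58 to 1.73) and was the most abundant Eph receptor per length, at 28.9 RPKM against 44.3 RPKM. Epha5, an ephrin-A receptor of forebrain axons, had 2565 and 3359 reads and a log2 ratio of 0.57, and Epha7 had 1364 and 1020 and one of -0.23. Epha3, Epha4 and Epha5 thus lay above the control, and Epha7 a little below it.

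The lower EphA members were scarce ones. Epha8 (ENSMUSG00000028661.8, chromosome 4, 136929419 to 136956816, minus strand), a receptor studied mainly in the midbrain, had 369 control reads against 104 in the library labelled knockdown, 3.12-fold lower (2.50 to 3.91). Epha10 (ENSMUSG00000028876.7, chromosome 4, 124880899 to 124917800, plus strand), a family member whose kinase domain is held to be inactive, had 256 and 105 reads, 2.14-fold lower (1.70 to 2.72). Both had fewer reads in the library labelled knockdown, and Epha10 passed the 2-fold line narrowly, at a log2 ratio of -1.04 that was -0.99 with a pseudocount of 1 CPM. Epha2 (57 and 28 reads) and Epha6 (36 and 39 reads) were below the minimum.

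EphB receptors had log2 ratios from -0.63 to 0.35, with a median of -0.53. Past 2-fold lay 0 of 5, beside 2.13% of all measured genes higher and 4.51% lower. With so few genes a count of 0 is the usual case. Ephb4, best known as the venous partner of ephrin-B2 in vessels, had 739 and 418 reads and was 1.55-fold lower (1.38 to 1.76) in the library labelled knockdown. Ephb1 and Ephb3, receptors that guide commissural and retinal axons, had log2 ratios of -0.53 and -0.56. Ephb2, which acts with both of them, had 2761 and 2585 reads and a log2 ratio of 0.09. Ephb6, a receptor without kinase activity, had 0.35. Ephb1, Ephb3 and Ephb4 were thus on the low side and the other EphB receptors were not.

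The ephrin-B ligands were the most abundant members per length and differed from each other. Efnb2 (ENSMUSG00000001300.9, chromosome 8, 8617434 to 8661242, minus strand), the transmembrane ligand ephrin-B2, had 4090 control reads (222 CPM) against 8005 (494 CPM) in the library labelled knockdown. The latter was the high one, by 2.23-fold (2.14 to 2.31). Efnb1, encoded on the X chromosome and known for its part in the adhesion of cortical progenitors, had 2986 and 4252 reads, 1.62-fold higher (1.55 to 1.70). Efnb3, a midline ligand for Epha4-bearing axons, had 4139 and 3386 reads, a log2 ratio of -0.10. The counting intervals of the 3 ligands did not overlap each other, but they cover counting error only and hold no spread between embryos.

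On the RPKM scale the order of the ephrin-B ligands differed between libraries. In the control, Efnb3 led at 73.1 RPKM, followed by Efnb2 at 53.2 and Efnb1 at 48.6 RPKM. In the library labelled knockdown Efnb2 led at 109.9 RPKM, followed by Efnb1 at 73.1 and Efnb3 at 63.2 RPKM. Together the ephrin-B genes made up 26.6% of the summed RPKM of all 46 members in the control and 29.5% in the other library. Xist, which coats the inactive X chromosome, had 5246 and 24642 reads. The 418 measured genes of the X chromosome other than Xist had a median log2 ratio of -0.03, and the 11602 autosomal ones had 0.04. The part of the sex mix in the Efnb1 difference was not tested.

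**Figure D3:**
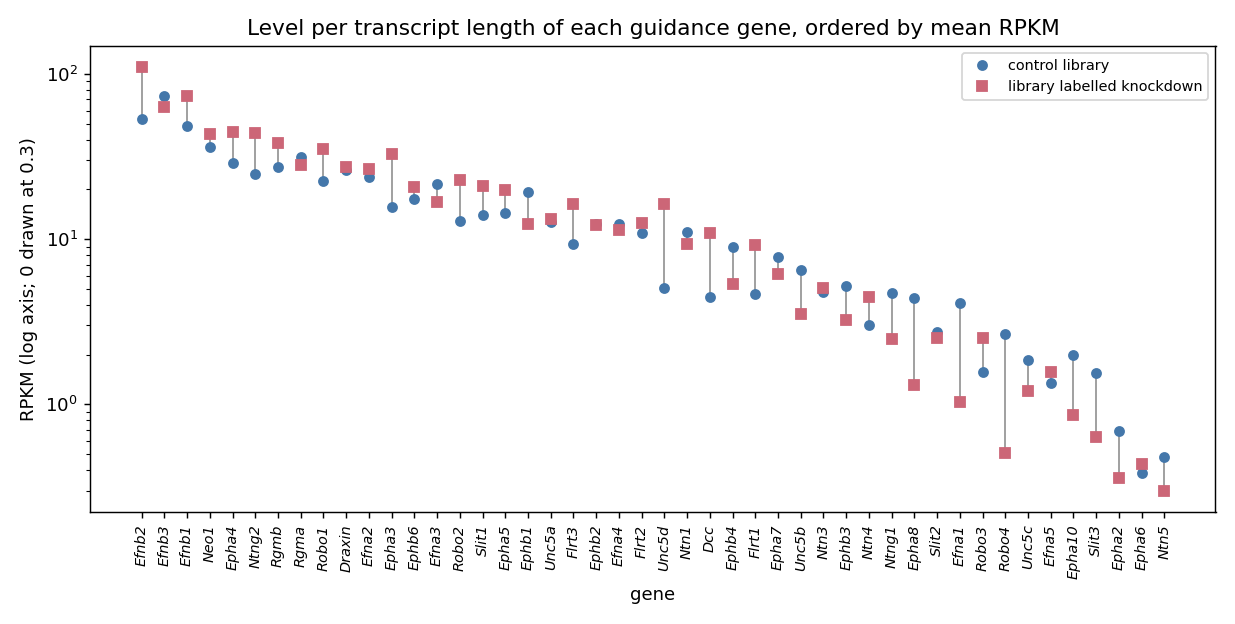
Level per transcript length (the authors' RPKM, log axis) of the 46 guidance genes in the control library (circles) and the library labelled knockdown (squares), ordered by mean RPKM. The ephrin-B genes fill the 3 leading places, and Efnb2 goes from 53.2 to 109.9 RPKM.

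Measured ephrin-A ligands lay close to the control, with log2 ratios from -0.25 (Efna3) to 0.29 (Efna5). Past 2-fold lay 0 of 4, beside 2.13% of all measured genes higher and 4.51% lower. Efna2, a ligand known for mapping visual axons, had 902 and 959 reads, and Efna4 had 351 and 307. Efna5, which shares that mapping role, was just inside the minimum with 97 and 106 reads. Efna1, an ephrin also made by endothelial cells, was just outside it at 133 and 32 reads. Its reads were fewer in the library labelled knockdown, 3.65-fold lower (2.47 to 5.55), and it is not among the 4 measured lower genes. Efna1, Efna3 and Efna4 lie in a row on chromosome 3, with 32.8 kb between the first pair and 10.4 kb between the second, and their log2 ratios were -1.64, -0.25 and -0.01.

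The Slit ligands went separate ways. Slit1, the Slit most restricted to the nervous system, had 1480 and 2099 reads and was 1.61-fold higher (1.51 to 1.73) in the library labelled knockdown. Slit2, a midline repellent, had 739 and 644 reads and a log2 ratio of -0.01. That value changed sign with the scaling, from -0.12 with library totals to 0.004 with median-of-ratios factors. Slit3 (ENSMUSG00000056427.4, chromosome 11, 35121224 to 35708507, plus strand), which is expressed widely outside the brain, had 167 and 65 reads, 2.26-fold lower (1.69 to 3.06). So Slit1 was high, Slit3 low and Slit2 level in the library labelled knockdown. Meningeal fibroblast markers moved with Slit3: 10 of 10 measured markers were at least 2-fold lower, beside 4.51% of all measured genes. Their summed levels were 1070 CPM (control) and 102 CPM. None of these 10 markers was at 0 (Dcn was lowest, with 724 and 1 reads), and their part in the Slit3 difference was not tested.

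Robo receptors had 3 members on the high side and 1 far below. Robo2, a neuronal Slit receptor that also acts in cortical progenitors, had 3785 control reads (205 CPM) against 6305 (389 CPM) in the library labelled knockdown, 1.90-fold higher (1.82 to 1.97). Robo1, its close relative in migrating neurons and callosal axons, had 3014 and 4453 reads, 1.68-fold higher (1.60 to 1.76). Robo3, the receptor that lets commissural axons reach the midline, had 188 and 286 reads, 1.73-fold higher (1.44 to 2.09). All 3 were higher in the library labelled knockdown, by less than 2-fold.

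Robo4 (ENSMUSG00000032125.13, chromosome 9, 37401897 to 37415115, plus strand), the endothelial member, had 194 control reads (10.5 CPM) against 35 (2.16 CPM) in the library labelled knockdown. It was 4.87-fold lower (3.39 to 7.20) in the library labelled knockdown, the lowest ratio among measured members. Robo3 is its neighbour, from 37415669 to 37433246 on the minus strand, with their 3′ ends facing and 553 bases between them. Whether counting used strand is not given in the sources used here, so reads running past an end could not be assigned with certainty. Robo1 and Robo2, which lie 846 kb apart on chromosome 16 with their 3′ ends facing as well, had log2 ratios of 0.75 and 0.92.

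Endothelial markers moved with Robo4. Of 11 measured endothelial markers 8 were at least 2-fold lower and 0 higher, beside 4.51% and 2.13% of all measured genes. Their median log2 ratio was -1.67, and summed levels over 12 listed markers were 417 CPM (control) and 164 CPM. None of the listed endothelial markers was at 0 in either library; Cdh5, the endothelial cadherin, had 900 and 241 reads, and Pecam1 555 and 247. Some other members known from endothelium lay on the low side (Efna1 at -1.64, Unc5b at -0.77 and Ephb4 at -0.63). Efnb2, which marks arterial endothelium as well as neural cells, had a log2 ratio of 1.15, and Ntn4, the basement membrane netrin, had 0.65. The members named here are not a list set in advance. The part of endothelial cells in these differences was not tested.

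Upstream sequences from RefSeq (GRCm38.p6) are shown for the members past 2-fold that have a single start in that table and at least 100 bases before the gene's GENCODE boundary. They are shown so that the sequence behind the motif counts can be read. Each runs 5′ to 3′ on the gene's strand up to the start, or to the GENCODE boundary for Robo4. Capitals mark the hexamers GGAATG, the core bound by TEAD factors, and CGGAAG, an ETS core, on either strand. Matches to TGANTCA and CAGATG were searched likewise and none lay in these 4 windows, and no marked matches overlap. The higher members come first and the lower ones after them.
Efnb2, chr8:8661243-8661492, minus strand: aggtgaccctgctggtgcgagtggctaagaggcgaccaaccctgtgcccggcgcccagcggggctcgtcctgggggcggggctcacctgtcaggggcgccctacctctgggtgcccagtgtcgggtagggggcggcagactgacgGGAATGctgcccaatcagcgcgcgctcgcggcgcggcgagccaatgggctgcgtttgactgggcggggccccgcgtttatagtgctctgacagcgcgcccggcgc
Epha3, chr16:63864176-63864425, minus strand: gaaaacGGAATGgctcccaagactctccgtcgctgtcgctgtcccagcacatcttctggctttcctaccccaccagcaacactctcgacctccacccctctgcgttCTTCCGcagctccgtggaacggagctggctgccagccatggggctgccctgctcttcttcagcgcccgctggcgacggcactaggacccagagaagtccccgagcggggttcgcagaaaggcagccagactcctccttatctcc
Epha8, chr4:136956817-136957066, minus strand: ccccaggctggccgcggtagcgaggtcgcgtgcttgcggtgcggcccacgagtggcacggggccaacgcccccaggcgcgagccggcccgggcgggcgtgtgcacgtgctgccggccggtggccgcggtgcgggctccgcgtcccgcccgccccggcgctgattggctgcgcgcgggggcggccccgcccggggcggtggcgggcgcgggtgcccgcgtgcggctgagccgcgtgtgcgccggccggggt
Robo4, chr9:37401722-37401896, plus strand: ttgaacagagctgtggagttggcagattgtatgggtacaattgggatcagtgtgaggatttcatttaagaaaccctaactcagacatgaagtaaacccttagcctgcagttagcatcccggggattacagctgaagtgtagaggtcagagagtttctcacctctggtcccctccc

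In these windows GGAATG began 105 bases before the start of Efnb2 and 244 bases before that of Epha3, and CGGAAG was found on the reverse strand of Epha3. Neither hexamer was in the windows of the 4 measured members at least 2-fold lower, but GGAATG was also upstream of Ntng1 (log2 ratio -0.79), Epha2 (-0.69, under the minimum) and Ntn3 (0.19), so it was present at members on both sides of the control. Of the 5 higher members, Unc5d, Dcc and Flrt1 were not analysed here for motifs, so no difference between higher and lower members is read from these matches. TEAD factors are the partners of Yap1, which the study names, but a match of 6 letters is a description and not a site. In the 250 bases upstream of all 32851 promoters of the table, GGAATG was present in 12.6%, CGGAAG in 13.6%, the AP-1 motif TGANTCA in 6.75% and the E-box CAGATG in 14.4%. Of 46 promoters of 39 matched members, 5 held GGAATG, 4 CGGAAG, 0 TGANTCA and 4 CAGATG. Member promoters were rich in G and C, with a median of 64.6% beside 52.4% for all promoters, and Robo4 (49.6%) and Epha8 (84.0%) lay at opposite sides of that median although both were lower in the library labelled knockdown.

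Netrin receptors held the 2 highest ratios of all members. Unc5d (ENSMUSG00000063626.5, chromosome 8, 28646717 to 29219636, minus strand), a repulsive netrin receptor that also binds Flrt proteins and marks multipolar cells and upper-layer neurons, had 808 control reads (43.8 CPM) against 2447 (151 CPM) in the library labelled knockdown. It was 3.45-fold higher (3.18 to 3.74) in the library labelled knockdown. Dcc, the attractive netrin receptor of commissural and cortical axons, had 642 control reads (34.8 CPM) against 1469 (90.7 CPM) in the library labelled knockdown, 2.60-fold higher (2.37 to 2.86). Both receptors were high in the same library.

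The remaining receptors of the group were more even. Neo1, the Dcc relative neogenin and a receptor for both netrins and Rgm proteins, had 4743 and 5391 reads and a log2 ratio of 0.37. It stayed the most abundant netrin receptor per length, at 36.1 and 43.3 RPKM. Unc5a, another repulsive netrin receptor, had 943 and 934 reads and a log2 ratio of 0.17. Unc5b, a netrin receptor of vessels and neurons, had 677 and 345 reads, 1.72-fold lower (1.51 to 1.97), and Unc5c had a log2 ratio of -0.52. Within the Unc5 family, Unc5d was thus high, Unc5a near the control, and Unc5b and Unc5c low.

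Some projection neuron and intermediate progenitor markers were higher in the same library as Unc5d and Dcc, and others were not. Of 12 measured projection neuron markers 4 were at least 2-fold higher and 0 lower, with summed levels of 6286 CPM (control) and 8001 CPM. Among all measured genes 2.13% were at least 2-fold higher and 4.51% lower. Cux2, a transcription factor of upper-layer neurons, had a log2 ratio of 1.28. Mapt, the microtubule protein tau, went the other way, with 26682 and 14353 reads, 1.63-fold lower (1.60 to 1.67), and the pan-neuronal tubulin Tubb3 had 38277 and 33578 reads and a log2 ratio near 0. Intermediate progenitor markers had 3 of 8 higher, with sums of 629 and 1072 CPM, while Neurog2 and Mfap4 of that list had log2 ratios of -0.01 and 0.05. Radial glia markers had 3 of 12 lower and 0 higher, with sums of 2619 and 1678 CPM. Of the 12, 10 had log2 ratios below 0, and Sox2 had the highest, at 0.13. Interneuron markers were mixed, with 2 of 10 higher and 2 lower, and sums of 787 and 971 CPM. The part of these cell types in the guidance gene differences was not tested.

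**Figure D4:**
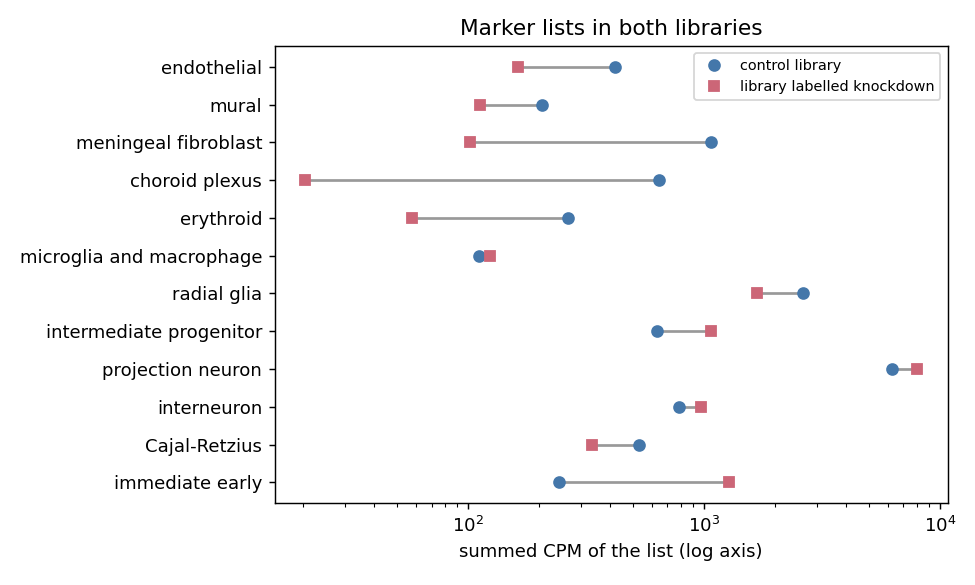
Summed CPM (log axis) of each marker list in the control library (circles) and the library labelled knockdown (squares). The endothelial sum goes from 417 to 164 CPM and the meningeal sum from 1070 to 102 CPM, while the projection neuron sum goes from 6286 to 8001 CPM.

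The netrin ligands differed less than their receptors. Ntn1, the classical secreted netrin, had 1232 and 985 reads and a log2 ratio of -0.14, and Ntn3 had 417 and 419 reads and one of 0.19. Ntn4, a netrin of basement membranes, had 200 and 280 reads, 1.59-fold higher (1.32 to 1.92). Ntn5 had 19 control reads against 0 in the library labelled knockdown, and it lay far below the minimum. The nearer bound of its counting interval was 4.10-fold lower. Thus none of the 3 measured secreted netrins passed 2-fold, beside 2.13% of all measured genes higher and 4.51% lower.

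The netrin-G proteins, lipid-anchored relatives that bind synaptic adhesion partners instead of Dcc, went in opposite directions. Ntng2 had 1754 control reads (95.1 CPM) against 2947 (182 CPM) in the library labelled knockdown, 1.91-fold higher (1.80 to 2.03). Ntng1 had 446 control reads (24.2 CPM) against 223 (13.8 CPM) in the library labelled knockdown, 1.76-fold lower (1.49 to 2.07). Their intervals, which cover counting error only, lay on opposite sides of equality.

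Flrt proteins, cell surface ligands of Unc5 and latrophilin receptors that act in radial and tangential spread of cortical neurons, were on the high side in all 3 members. Flrt1 (ENSMUSG00000047787.7, chromosome 19, 7092001 to 7105729, minus strand) had 488 control reads (26.5 CPM) against 912 (56.3 CPM) in the library labelled knockdown, 2.13-fold higher (1.90 to 2.38). This gene sat at the 2-fold line, with a log2 ratio of 1.07 that was 0.97 with library totals. Flrt3 had 803 and 1339 reads, 1.90-fold higher (1.74 to 2.07), and Flrt2 had 1489 and 1630, a log2 ratio of 0.32. Flrt1 and the receptor Unc5d were thus both high in the same library.

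Rgma and Draxin were near the control, whereas Rgmb lay above it. Rgmb, a membrane-anchored ligand of neogenin and BMP coreceptor, had 1286 and 1687 reads, 1.49-fold higher (1.39 to 1.61), a log2 ratio of 0.57. Rgma, the founding repulsive member, had 2126 and 1786 reads and a log2 ratio of -0.06, with a counting interval that included an equal level. Draxin, a secreted ligand of Dcc needed for forebrain commissures, had 2411 and 2400 reads and a log2 ratio of 0.18.

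Genes that act downstream of or beside these receptors were examined as a list of effectors and partners, of which 56 genes were found and measured. Of these, 2 were at least 2-fold higher and 1 lower, and 53 lay between, beside 2.13% and 4.51% of all measured genes. The list median was a log2 ratio of 0.31, and that of all measured genes 0.03. Above 0 lay 45 of the 56, and 53.1% of all measured genes. The 2655 measured genes over 100 CPM had a median of 0.20, and the part of level in the list median was not tested. Pdzrn3, a ubiquitin ligase with PDZ domains, had 933 and 2052 reads, 2.50-fold higher (2.32 to 2.71), and the BMP receptor gene Bmpr2 had 405 and 748, 2.10-fold higher (1.86 to 2.38). Ndnf, a secreted neuronal factor that Cajal-Retzius cells also make, had 188 and 57 reads, 2.90-fold lower (2.14 to 3.97). Of 7 Cajal-Retzius markers measured, 3 were lower and 0 higher, with sums of 529 and 336 CPM, and their part in the Ndnf difference was not tested.

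By receptor system, the effector medians were close to each other. The 19 Eph and ephrin effectors had a median log2 ratio of 0.31, the 15 Slit and Robo effectors 0.36, the 16 netrin receptor effectors 0.25 and the 7 Flrt and Rgm partners 0.40. These transcripts are long too, with a median of 6.56 kb, and after the length correction the median of all 56 was 0.22.

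In the authors' deposited table, 6 of the 46 members met the study's threshold of p under 0.05 with more than a 2-fold difference, beside 7.87% of all listed genes. Unc5d (log2 fold change 1.78) and Dcc (1.38) were higher there, and Ntn5, Robo4, Efna1 and Epha8 were lower. At an FDR below 0.05 the authors' deposited table held 1 member, Ntn5, whose FDR was 0.0331 on 19 and 0 reads, beside 1.88% of all listed genes. Robo4 had a log2 fold change of -2.28 and an FDR of 0.0821 in the authors' deposited table. With 1 library per group such p-values rest on an assumed spread between replicates and compare the libraries, not the conditions.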

How the data were processed

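RNA-seq was deposited as 1 table for 2 libraries, 1 per group. TopHat2 2.0.12, Bowtie 1.0.1 and HTSeq 0.6.0 are named in the submitters' processing notes, with no role stated. The build, annotation and strand setting were not given in the sources used. Raw counts of reads are deposited for each gene, per the file headers. It also holds the authors' RPKM values, log2 fold change, log2 average CPM, p-value and FDR, per the file headers.

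Library sizes were multiplied by TMM factors (edgeR 4.0.16), which were 1.04 in the control and 0.963 in the other library. The log2 ratio of CPM used a pseudocount of 0.5 CPM, which understates differences of low genes. Genes whose mean reached 5 CPM were called measured, and 2-fold was a rule of size. No test was run, since there is no replicate. Exact (Clopper-Pearson) 95% intervals come from the split of reads, and PCR copies make even counting error an underestimate. The calculation was tested on simulated counts with known changes, drawn with counting error only. That test says nothing of the spread between embryos, litters or sorts.

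Members and lists were chosen with earlier results of these data known. Named genes are measured members past 1.5-fold and the 2 with the highest mean RPKM in each of 7 families; others, including the 4 under the minimum, Epha5, Epha7, Ephb1, Ephb2, Ephb3, Ephb6 and the ephrin-A genes, were named after their values were seen. Cux2, Mapt, Neurog2 and Mfap4 were also so chosen, as were the promoter motifs and the rule for which promoters are shown. Positions were found in GENCODE M21 for 45 members, and 39 matched the RefSeq promoter table. Of 46 promoter entries, the bases after the start opened a GENCODE transcript of that gene in 38. Family members share sequence, and how reads matching several genes were counted is not stated.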

Additional observations from a re-analysis of the deposited data

How the results depend on the processing

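No paired analysis was possible because each group has 1 library. The median log2 ratio of the measured guidance genes stayed above 0 under each of 10 other settings of scaling, pseudocount, minimum level and length correction or with the authors' values, from 0.12 with library totals to 0.33 with a minimum of 20 CPM. Library totals moved the median of all measured genes from 0.03 to -0.07, so the members moved with the rest. The number of members past the fold threshold was 14 higher and 7 lower at 1.5-fold, beside 9.13% and 12.4% of all measured genes. At 3-fold it was 1 higher and 1 lower, beside 0.486% and 1.52%. With a minimum of 20 CPM, 0 were lower, because the 4 lower members have mean levels below it, and 5 were higher. The shares of all genes over that minimum were 1.78% lower and 1.66% higher. Other settings gave 4 or 5 higher and 3 to 6 lower. Over all genes these settings gave from 1.54% (library totals) to 3.23% (no minimum) higher. The lower share ran from 4.11% (pseudocount of 1 CPM) to 8.85% (no minimum). Of 28 named genes, 1 changed sign under an alternative (Slit2). Depth limits the scarce members most: Robo4 rests on 35 reads in the knockdown library and Slit3 on 65. The medians of Slit ligands and of ephrin-A ligands changed sign between settings, so neither family has a direction.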
